A study of Homo sapiens with 6 samples.

Results

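The sample labels number the replicates of each genotype 1 to 3, and the 2 RNA-seq libraries numbered replicate 1 (1 WT, 1 PARP3-/-) were compared with the 4 numbered replicates 2 and 3. These 6 libraries are the whole series. The WT cells were parental LN229, an established human glioblastoma line with intact PARP3. The PARP3-/- cells were the same line after PARP3 had been disrupted with CRISPR/Cas9 nickase pairs and grown out from single-cell clones, and the sources used here do not say which clone was sequenced. Both were grown untreated in serum-containing MEM with gentamicine. The labels call the libraries biological replicates but give no date, passage, cell density or library batch for a number, so a difference in culture and a difference in handling between the numbers cannot be told apart. Genotype was a covariate throughout: the values below are log2 differences of replicate 1 minus replicates 2 and 3 at equal genotype, and levels are CPM (a gene's counts scaled to the size of its library, with edgeR's TMM factor).

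The replicate 1 libraries were the shallowest of each genotype, with 35582892 (WT) and 29692065 (PARP3-/-) counts on genes against 38239851 to 46010369 in the others, and a level of 3 counts, taken as the lowest that can be told from none, lay between 0.0673 and 0.0995 CPM. Protein-coding genes took 96.25% to 96.36% of the counts in replicate 1 and 96.97% to 97.58% in the others, and lincRNA genes took 0.84% to 0.862% against 0.544% to 0.603%. When the genotype means had been removed, the first principal component held 81.8% of the variance and put both replicate 1 libraries on 1 side, at −33.1 (WT) and −28.7 (PARP3-/-), with the other 4 between 10.4 and 22.6. Over genes, the chi-square per degree of freedom was 54.8 to 105.4 for pairs of libraries of 1 genotype that held replicate 1, and 12.1 (WT) and 4.12 (PARP3-/-) between replicates 2 and 3, so no pair agreed within sampling noise. PARP3, the targeted gene, stood at 34.8, 22.4 and 24.2 CPM in WT replicates 1, 2 and 3 and at 19.0, 22.5 and 19.5 CPM in PARP3-/-. The genotypes overlapped, so the PARP3 level does not check the genotype labels.

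Cells meet unfolded protein in the endoplasmic reticulum (ER) with the unfolded protein response, which runs through 3 sensors in the ER membrane, IRE1 (ERN1), PERK (EIF2AK3) and ATF6. IRE1 splices the mRNA of the transcription factor XBP1, ATF6 is cut to release a transcription factor, and both raise chaperones and the machinery that extracts misfolded protein for degradation. PERK slows translation and favours ATF4, which raises amino acid genes, TRIB3 and CHOP (DDIT3). Entry into S phase is driven by E2F factors, which switch on the genes for replication origins, DNA polymerases and nucleotide supply. LN229 was labelled as a proliferating line, and both programmes are active to some degree in cultured tumour cells.

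Among the 17144 genes tested with edgeR's quasi-likelihood test, 3472 (20.3%) were higher and 3768 (22%) lower in replicate 1 at a Benjamini-Hochberg adjusted p under 0.05. These shares are the background given for the lists below, but the shares moved with level. Of the 20% of protein-coding genes with the highest mean CPM, 43.5% were lower and 17.4% higher. In the 20% with the lowest mean CPM, 7.23% were lower and 19.2% higher. The lists were not matched for level. Beyond a 2-fold difference there were 376 higher genes (2.19%) and 178 lower genes (1.04%). Both replicate 1 libraries lay above all 4 others for 3839 genes (22.4%) and below them for 3948 (23%). The median over all tested genes was 0.01. Unfolded protein response genes stood at the higher end, with 20 of 21 higher, and genes of DNA replication at the lower end, with 40 of 40 lower. These lists were chosen with earlier results of these data known, and the deposited Gene Ontology terms given at the end were less uniform.

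The promoters of 6 unfolded protein response genes are shown because they hold the ER stress element, the site through which ATF6, XBP1 and the factor NF-Y act on this programme. Of 17 elements searched, each chosen for 1 or more of the lists, this one set its genes furthest from the rest. The letters searched were CCAAT and CCACG with 9 bases of any kind between them, on both strands, in the 250 bases before each RefSeq start site (GRCh38.p14). Capitals mark the element, which begins with CGTGG and ends with ATTGG where it lies on the other strand. Each stretch is written 5′ to 3′ on the strand of its gene.
CALR, chr19:12938364-12938422 (+): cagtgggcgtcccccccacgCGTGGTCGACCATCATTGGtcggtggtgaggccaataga
CANX, chr5:179698758-179698816 (+): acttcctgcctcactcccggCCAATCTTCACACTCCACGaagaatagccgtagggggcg
CRELD2, chr22:49918534-49918592 (+): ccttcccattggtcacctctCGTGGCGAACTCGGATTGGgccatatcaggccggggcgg
HSP90B1, chr12:103930196-103930359 (+): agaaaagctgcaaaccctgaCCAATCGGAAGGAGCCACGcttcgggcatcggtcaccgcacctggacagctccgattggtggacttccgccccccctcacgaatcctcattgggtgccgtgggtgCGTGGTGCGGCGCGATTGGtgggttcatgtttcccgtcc
HSPA5, chr9:125241371-125241429 (-): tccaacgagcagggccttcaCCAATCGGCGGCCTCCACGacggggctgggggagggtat
XBP1, chr22:28800583-28800641 (-): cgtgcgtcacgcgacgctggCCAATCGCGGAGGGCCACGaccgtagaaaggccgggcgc

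The element was found in 22 of 27305 promoter windows (0.0806%) and in 6 of the 20 windows of the unfolded protein response list (30%). Of the 14 tested genes that hold it, 13 were higher in replicate 1 and 0 were lower, with a median log2 difference of 0.89, while of all 11447 tested genes with a window 21.2% were higher, with a median of −0.01. Outside the list these were ERO1B at 1.67, FICD at 1.69, ALG12 at 1.07, SERP1 at 0.65, TMEM120A at 0.49, TRIM5 at 0.46 and EIF2A at 0.36. ZNF17 was the only one of the 14 that did not pass, at 0.24 (adjusted p = 0.0958, edgeR). ERO1B oxidizes protein disulfide isomerases, FICD modifies the chaperone HSPA5, and ALG12 builds the sugar chain that is attached to new proteins in the ER. The 14 genes are not independent, since CRELD2 and ALG12 are neighbours that share 1 element, as are EIF2A and SERP1, which leaves 13 distinct elements. A match of letters is a description and does not show binding.

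The ER chaperones and folding enzymes were higher in both replicate 1 libraries. HSPA5 (BiP), the main Hsp70 of the ER, stood at 2399 CPM in WT replicate 1 and 1972 in PARP3-/- replicate 1, against 620 and 658 CPM in WT replicates 2 and 3 and 672 and 648 in PARP3-/-. The replicate 1 values did not overlap the others in either genotype. The log2 difference was 1.75 (SE 0.08, adjusted p = 7.84e-08), 1.91 within WT and 1.58 within PARP3-/-. HYOU1, a large Hsp70-related chaperone, differed by 1.54, the J-domain partners DNAJB11 and DNAJC3 by 1.29 and 1.24, and SDF2L1, which works with them, by 1.90. HSP90B1 (GRP94), the Hsp90 of the ER, differed by 0.91. The lectin chaperones CALR and CANX differed by 0.86 and 0.39, and the disulfide isomerases PDIA4, PDIA3 and PDIA6 by 1.26, 0.81 and 0.59. MANF and CRELD2, a pair of secreted proteins made under ER stress, differed by 1.44 and 1.90. All of these passed the test, and SEC61B, a subunit of the channel into the ER, did not (0.01, adjusted p = 0.924).

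Genes of ER-associated degradation, which sends misfolded protein to the proteasome, held the gene of smallest p. HERPUD1 (ENSG00000051108, chr16:56932048-56944863, hg38), which anchors the degradation complex, stood at 279 and 267 CPM in WT and PARP3-/- replicate 1. In the other 4 libraries it lay between 46.0 and 48.3 CPM. The replicate 1 libraries were thus far outside a range that the other 4 filled closely, and the log2 difference was 2.53 (SE 0.05, adjusted p = 3.39e-11). SYVN1 (HRD1), the ubiquitin ligase of the complex, stood at 91.1 and 75.5 CPM in replicate 1 against 24.9 to 26.5 in the others, a difference of 1.70. SEL1L, its partner, differed by 1.43, and EDEM1, which trims sugars from misfolded glycoproteins, by 0.87. DNAJB9 (ERdj4), which feeds clients to BiP, stood at 90.7 and 100 CPM in replicate 1 against 19.05 to 22.97 in the others, a difference of 2.22. Summed over the 21 genes of the list, the level was 17790 CPM in WT replicate 1 and 14780 in PARP3-/- replicate 1, against 7762 to 8366 in the other 4 libraries.

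The sensors and their transcription factors were higher as well. XBP1 stood at 338 and 321 CPM in WT and PARP3-/- replicate 1 and between 145 and 158 CPM in the other 4 libraries, a log2 difference of 1.11 (SE 0.06, adjusted p = 2e-07). These counts are of the whole gene and do not separate spliced from unspliced XBP1. ATF6 differed by 0.29 (SE 0.05, adjusted p = 0.000841). The kinases of the other 2 sensors were looked up after the values of the list had been seen: ERN1 differed by 1.38 and EIF2AK3 by 0.93, and both passed. In all, 13 of the 21 list members were beyond 2-fold, all 20 that passed had both replicate 1 libraries above the other 4, and the list's median was 1.26 (1.43 in WT, 1.11 in PARP3-/-).

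**Figure D1:**
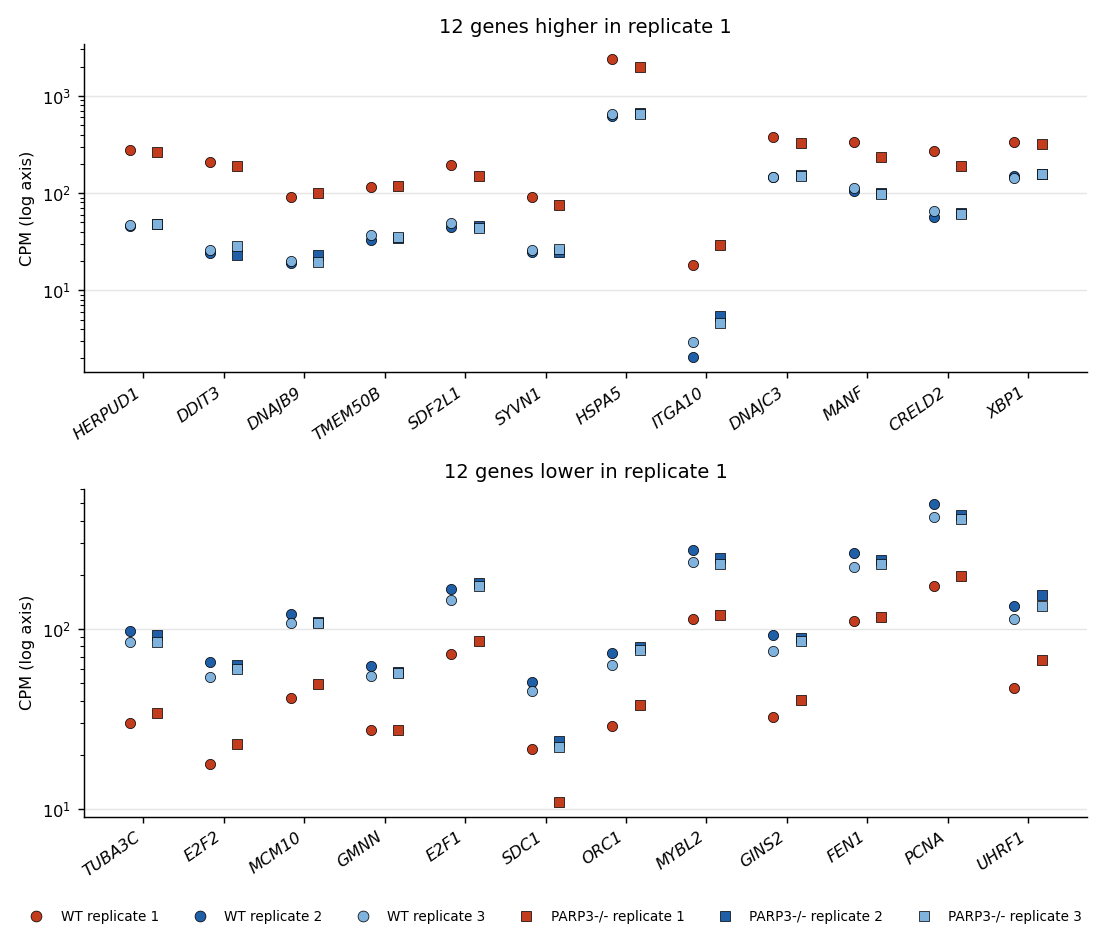
Level of 24 genes in each library, in CPM on a log axis, for the 12 higher (top) and 12 lower (bottom) genes of smallest p beyond 2-fold; circles are WT, squares PARP3-/-, red is replicate 1, dark blue replicate 2 and light blue replicate 3. Each red point lies outside the range of the 4 blue points of its gene, by design of the choice; for HERPUD1 the red points are at 279 and 267 CPM and the blue ones at 46.0 to 48.3.

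Of the genes that ATF4 controls, 19 of 29 were higher in replicate 1 and 0 lower, with a median of 0.47 (0.55 in WT, 0.24 in PARP3-/-). DDIT3 (CHOP, chr12:57516588-57520517), a transcription factor tied to cell death under prolonged stress, stood at 208 and 191 CPM in WT and PARP3-/- replicate 1. In the others it stood at 24.3 and 25.9 CPM in WT and 23.2 and 28.3 CPM in PARP3-/-. With a log2 difference of 2.98 (SE 0.07, adjusted p = 1.36e-10) it had the largest difference of the 24 genes chosen by smallest p. TRIB3, a pseudokinase that DDIT3 and ATF4 raise, stood at 406 and 272 CPM in replicate 1 against 83.1 to 95.9 CPM in the others. Its difference was 1.91 (adjusted p = 5.36e-07). ATF4 itself differed by 0.65, and CHAC1, which breaks down glutathione, by 1.03.

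The amino acid genes of this list were uneven. ASNS, which makes asparagine, stood at 16.4 CPM in WT and 13.2 in PARP3-/- replicate 1 and at 3.95 to 5.61 CPM in the others, a difference of 1.56. CTH, in cysteine synthesis, differed by 1.04, the cystine importer SLC7A11 by 0.60 and the proline enzyme PYCR1 by 0.55. The serine synthesis genes PHGDH and PSAT1 stood at −0.08 and 0.00 and the large amino acid transporter subunits SLC7A5 and SLC3A2 at −0.25 and 0.09, and none of these 4 passed. Of the 18 cytosolic aminoacyl-tRNA synthetases, also named as ATF4 targets, 8 were higher and 5 lower, from WARS at 0.89 and AARS at 0.83 down to RARS at −0.33. These counts moved with single libraries: without WT replicate 1, 3 were higher, without PARP3-/- replicate 3, 5 were higher, and without PARP3-/- replicate 1, 3 were lower. The count of higher ATF4 genes fell to 12 without WT replicate 1 and was 19 without PARP3-/- replicate 1, while 20 unfolded protein response genes passed without either.

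Several stress genes outside these lists moved the same way. GDF15, a secreted stress hormone, stood at 164 and 122 CPM in WT and PARP3-/- replicate 1 and at 24.2 to 49.2 CPM in the others, a difference of 1.96. VEGFA, the angiogenic factor, differed by 1.09, in a hypoxia list of which 5 of 21 were higher and 8 lower (5 lower without WT replicate 1). BNIP3, EGLN3 and PDK1, on that list, were lower, at −0.75, −0.95 and −0.61. Among genes chosen after their values were seen, GFPT1, the first enzyme of the hexosamine pathway, stood at 282 and 271 CPM in replicate 1 against 135 to 140 CPM in the others (1.02). OGT, which puts the sugar made by this pathway on nuclear and cytosolic proteins, differed by 0.79, and MGEA5 (OGA), which takes it off, by −0.69. TMEM50B (1.73) and the integrin subunit ITGA10 (2.67) completed the 12 higher genes of smallest p.

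Every gene of the G1/S and DNA replication list was lower in replicate 1. All 40 passed the test, all 40 had both replicate 1 libraries below the other 4, and 18 were beyond 2-fold. The median was −0.98 (−1.09 in WT, −0.87 in PARP3-/-), and the summed level was 3450 CPM in WT and 4215 in PARP3-/- replicate 1 against 6645 to 7630 CPM in the others. The smallest differences were those of the polymerase subunits POLE (−0.45) and POLA1 (−0.48) and of the origin licensing factor CDC6 (−0.50).

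The upstream regulators of S phase were among the lowest. E2F2 (chr1:23506430-23531220) stood at 17.71 and 22.98 CPM in WT and PARP3-/- replicate 1, at 65.2 and 54.0 in WT replicates 2 and 3, and at 63.4 and 59.9 in PARP3-/-. Replicate 1 was well below the others and the groups did not overlap (−1.58, SE 0.10, adjusted p = 5.9e-07). E2F1 differed by −1.07, CCNE2 and CCNE1, the cyclins that start S phase, by −1.56 and −1.23, and CDC25A, a phosphatase that activates their kinase, by −1.30. CCND1, the growth-factor responsive cyclin D1, stood at 688 and 784 CPM in replicate 1 and at 956 to 1556 CPM in the others (−0.76). CCND3 differed by −0.83.

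The replication machinery followed. PCNA, the sliding clamp, stood at 174 and 196 CPM in replicate 1, at 498 and 417 CPM in WT replicates 2 and 3 and at 428 and 410 CPM in PARP3-/- (−1.24, SE 0.09, adjusted p = 2.07e-06). MCM10, which is needed to start the replicative helicase, stood at 41.3 and 49.5 CPM in replicate 1 against 108 to 122 CPM in the others, a difference of −1.30. GINS2, of the helicase, differed by −1.24, the origin protein ORC1 by −1.14 and geminin (GMNN) by −1.08. The flap nuclease FEN1 differed by −1.07, and UHRF1, which carries DNA methylation onto new strands, by −1.24. For E2F2 and PCNA, WT replicate 2 was above WT replicate 3, and the PARP3-/- replicates 2 and 3 were closer together. Such an order was common: among all genes that passed, replicate 3 lay between replicates 1 and 2 for 77.5% in WT and 62.1% in PARP3-/-. TUBA3C, a tubulin with near-identical copies whose reads may be shared among them, and the syndecan SDC1 were the lower genes of smallest p that are not cell cycle genes, at −1.48 and −1.11.

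Mitotic genes moved less. Of 40 genes, 39 were lower and 0 higher, with a median of −0.59 (−0.79 in WT, −0.42 in PARP3-/-). MYBL2, which bridges S phase and mitotic transcription, stood at 114 and 119 CPM in replicate 1 against 230 to 274 CPM in the others (−1.08). CCNA2 differed by −0.88, CDK1 by −0.72, CCNB1 by −0.60 and the proliferation antigen MKI67 by −0.48, and CENPF was the 1 gene that did not pass (−0.19). For MKI67 the difference was −0.70 in WT and −0.26 in PARP3-/-, and a test of that difference gave an unadjusted p of 0.000948 and an adjusted p of 0.344 (edgeR), or an adjusted p of 0.00136 with the replicate number as a block. The replication-dependent histones, whose mRNA lacks a poly(A) tail and is made in S phase, were lower for 45 of 56 genes and higher for 1, with a median of −0.56. Histone genes took 1.06% and 0.97% of all counts in WT and PARP3-/- replicate 1, and 1.32% to 1.58% in the others. The 1 higher histone was HIST1H1T, the testis H1, at 0.93 and 1.39 CPM in replicate 1 and 0.381 to 0.538 CPM in the others. Histone genes are near-identical copies, and the split of reads among them is uncertain.

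The promoters of 6 replication genes are shown because they hold the consensus of the E2F site. The letters searched were TTTGGCGC on both strands in the same windows, and capitals mark them, as GCGCCAAA where the site lies on the other strand.
CDC25A, chr3:48188434-48188481 (-): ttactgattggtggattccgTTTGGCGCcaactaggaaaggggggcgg
E2F1, chr20:33686386-33686425 (-): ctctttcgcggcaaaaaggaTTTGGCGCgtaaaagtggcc
E2F2, chr1:23531248-23531295 (-): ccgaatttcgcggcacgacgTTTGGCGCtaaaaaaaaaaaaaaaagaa
MCM6, chr2:135876506-135876615 (-): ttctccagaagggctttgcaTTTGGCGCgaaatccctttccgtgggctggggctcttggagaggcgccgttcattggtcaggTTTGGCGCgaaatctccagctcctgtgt
POLA1, chrX:24693761-24693808 (+): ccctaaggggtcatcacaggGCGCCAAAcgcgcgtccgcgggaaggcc
POLE, chr12:132687343-132687380 (-): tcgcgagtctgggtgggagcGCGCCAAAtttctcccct

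This site was found in 151 of 27305 windows (0.553%) and in 6 of the 34 windows of the list (17.6%). Of the 103 tested genes that hold it, 44 were lower and 14 higher in replicate 1, or 42.7% and 13.6%, against 26.5% and 21.2% of all tested genes with a window. The 6 genes shown ranged from −1.58 (E2F2) to −0.45 (POLE), so genes with a match differed in size. TTTGAA, the core of the CHR element of mitotic promoters, was found in 18 of the 34 windows of the mitotic list (52.9%) and in 13.6% of all windows, and of the 1008 tested genes that hold it 331 were lower and 180 higher. Other elements searched stood nearer the background: of 183 tested genes with the ATF4 composite element (TGATGNAA) 43 were higher and 31 lower (23.5% and 16.9%), and of 38 with the heat shock element 12 were higher and 13 lower. As for the ER stress element, the genes of each list are counted among all genes that hold a site.

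**Figure D2:**
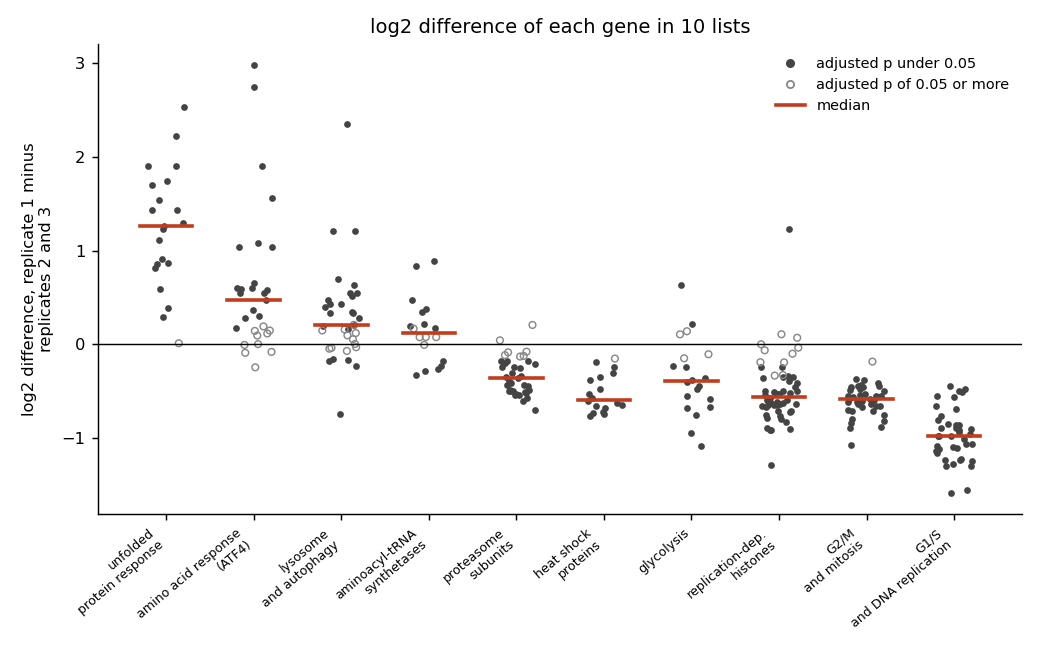
log2 difference (replicate 1 minus replicates 2 and 3, genotype as covariate) of each tested gene in 10 lists; filled points passed the test at an adjusted p under 0.05, open points did not, and the red bar is the median of the list. The bars run from 1.26 for the unfolded protein response to −0.98 for G1/S and DNA replication, and no gene of the latter lies above 0.

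Chaperones of the heat shock list went the other way from those of the ER. Of 18 heat shock proteins, 17 were lower in replicate 1 and 0 higher, with a median of −0.59. Most of them guard protein folding in the cytosol and nucleus under control of HSF1. HSPA8, the constitutive Hsp70, stood at 1083 and 1185 CPM in replicate 1 and at 1681 to 2043 CPM in the others (−0.66). HSPH1 differed by −0.77, HSPB1 by −0.75, DNAJA1 by −0.74, HSP90AA1 by −0.72 and the inducible HSPA1A by −0.48. CRYAB did not pass (−0.15). HSPA1A and HSPA1B are near-identical, and their reads may be split. The proteasome, the cytosolic protease, was lower for 30 of 37 subunit genes and higher for 0, with a median of −0.36 and PSMD1 lowest at −0.70.

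Genes of energy metabolism were lower by smaller amounts. In glycolysis 14 of 20 genes were lower and 2 higher, with a median of −0.40. LDHA, which makes lactate, stood at 505 and 524 CPM in replicate 1 and at 956 to 1275 CPM in the others (−1.09, adjusted p = 5.73e-06). PGAM1 (−0.95), PGK1 (−0.76), TPI1 (−0.68), ENO1 (−0.67) and the glucose transporter SLC2A1 (−0.58) were lower, and SLC2A3, another glucose transporter, was higher at 0.63. TXNIP, which limits glucose uptake and is raised by glucose, stood at 7.17 and 9.82 CPM in replicate 1 and at 26.6 to 39.7 CPM in the others (−1.90, SE 0.18, adjusted p = 1.02e-05). Of the nuclear genes of oxidative phosphorylation 42 of 77 were lower (27 without PARP3-/- replicate 1) and 0 higher (median −0.17), and of the mitochondrial ribosomal proteins 47 of 75 were lower and 3 higher (median −0.25), the higher ones 0 without WT replicate 1. MYC and ribosome biogenesis genes had 17 lower and 3 higher of 35 (median −0.16), with MYC itself at −0.06. Without PARP3-/- replicate 1 these counts were 10 lower and 6 higher, and without WT replicate 1 there were 0 higher. The cytosolic ribosomal proteins had 18 higher (22%) and 2 lower (2.44%) of 82, against 20.3% and 22% of all tested genes. Their median was 0.22 in WT and 0.00 in PARP3-/-. The higher ones numbered 4 without WT replicate 1 and 33 without PARP3-/- replicate 1. TFRC, the transferrin receptor, chosen after its value was seen, was lower, at 211 and 204 CPM in replicate 1 and 389 to 458 CPM in the others.

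**Figure D3:**
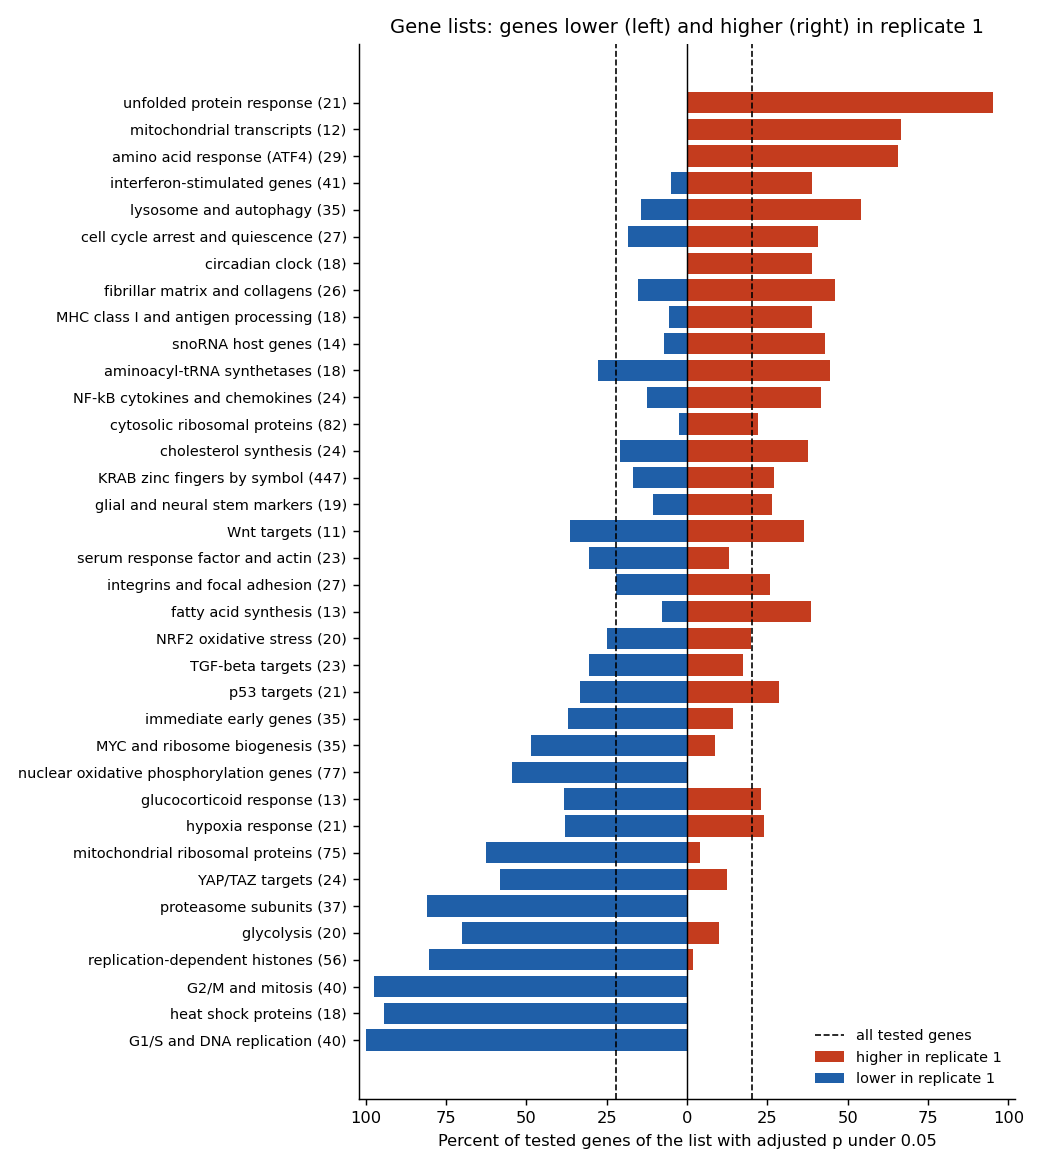
Share of tested genes in each list (number tested in brackets) that were lower (blue, left) or higher (red, right) in replicate 1 at an adjusted p under 0.05, ordered by the median log2 difference; dashed lines are the shares over all tested genes, 22% lower and 20.3% higher. Bars reach 95.2% higher for the unfolded protein response and 100% lower for G1/S and DNA replication, and most lists between them hold calls on both sides.

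In the list of cell cycle arrest and quiescence genes 11 of 27 were higher and 5 lower, with a median of 0.18. The kinase inhibitor CDKN1B (p27) was higher at 0.26, and FOXO1 and CCNG2 were higher at 0.49 and 0.66. Of the 5 lower genes, CCND1 (−0.76) and CCND3 (−0.83) are cyclins that drive proliferation. The other 3 were TXNIP (−1.90) and the kinase inhibitors CDKN2D (−0.41) and CDKN1A (p21, −0.32). Of 21 p53 targets 6 were higher, among them GDF15 and BBC3 (0.83), and 7 lower (4 without WT replicate 1). In the lysosome and autophagy list 19 of 35 were higher and 5 lower (median 0.21), and the lower ones numbered 1 to 3 when either replicate 1 library or PARP3-/- replicate 2 or 3 was left out. GPNMB, a lysosomal membrane glycoprotein, stood at 29.6 and 40.3 CPM in replicate 1 and at 3.95 to 9.49 CPM in the others (2.35, SE 0.14, adjusted p = 5.36e-07). WIPI1, which acts in forming autophagosomes, differed by 1.21, the autophagy receptor SQSTM1 by 0.69 and the protease CTSD by 0.54, while GLA was lower at −0.74.

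Innate immune lists were higher in part. Of 41 interferon-stimulated genes 16 were higher and 2 lower (median 0.22), with MX2 at 1.19, IFITM1 at 1.12 and IRF9 at 0.96, while ISG15 and OAS1 (−0.05 and −0.07) did not pass. The higher ones numbered 10 without WT replicate 1. Of 24 NF-kB targets 10 were higher and 3 lower (median 0.12), but 4 and 4 without WT replicate 1, 6 and 5 without PARP3-/- replicate 1, and 5 were lower without PARP3-/- replicate 2. Among them were PTGS2 (cyclooxygenase-2) at 1.31 and CXCL3 at 1.16. MX2 stood at 4.87 and 10.2 CPM in WT and PARP3-/- replicate 1, against 1.86 and 2.02 CPM in WT and 4.78 and 4.92 CPM in PARP3-/- for replicates 2 and 3, so for this gene the groups overlap across genotypes and separate within each. Of 18 MHC class I genes 7 were higher (4 without PARP3-/- replicate 3) and 1 lower (median 0.16), and the largest difference there was that of CALR, already counted as an ER chaperone.

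Matrix and adhesion lists were mixed. Of 26 collagens and matrix proteins 12 were higher and 4 lower (median 0.16; 2 lower without PARP3-/- replicate 1 or 2), from the proteoglycan BGN at 1.46 and COL1A2 at 0.69 to COL6A3 at −0.57 and thrombospondin THBS1 at −0.83. THBS1 stood at 1331, 3045 and 2052 CPM in WT replicates 1, 2 and 3 and at 3237, 5709 and 5028 CPM in PARP3-/-, so each replicate 1 library was the lowest of its genotype. Of 27 integrin and focal adhesion genes 7 (25.9%) were higher and 6 (22.2%) lower (median −0.02), near the shares over all tested genes (20.3% and 22%). Without WT replicate 1, 4 were higher and 3 lower, and without PARP3-/- replicate 1, 3 were lower. ITGA10 was the furthest of these, at 18.0 and 29.0 CPM in replicate 1 against 2.05 to 5.45 CPM in the others (2.67, SE 0.12, adjusted p = 8.99e-08). Targets of YAP and TAZ, coactivators that respond to cell density and tension, were lower for 14 of 24 and higher for 3 (median −0.26). Of the 24, 8 had both replicate 1 libraries below the other 4, and 8 were lower without PARP3-/- replicate 1. CTGF, the best known of them, stood at 57.2 and 77.9 CPM in replicate 1 and at 109 to 144 CPM in the others (−0.93), CYR61 was lower at −0.58, and IGFBP3 was higher at 0.99.

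Immediate early genes, which answer serum within minutes, did not share 1 pattern. Of 35, 13 were lower and 5 higher (median −0.11), and 1 was higher without WT replicate 1. JUN stood at 63.7 and 49.0 CPM in replicate 1 and at 91.8 to 114 CPM in the others (−0.92, adjusted p = 6.76e-06). FOS, chosen after its values were seen, stood at 3.58, 4.12 and 15.1 CPM in WT replicates 1, 2 and 3 and at 3.25, 4.51 and 9.20 CPM in PARP3-/-. For FOS it was replicate 3 that stood apart in both genotypes, and replicate 1 was close to replicate 2, although the gene passed (−1.26, SE 0.45, adjusted p = 0.0382). EGR1 had the same order of levels, with replicate 3 highest at 30.9 (WT) and 17.7 CPM (PARP3-/-), and did not pass (adjusted p = 0.16).

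The remaining lists are given by their counts, to be read beside 20.3% higher and 22% lower over all tested genes. Higher and lower genes numbered 9 and 5 of 24 for cholesterol synthesis, 5 and 1 of 13 for fatty acid synthesis, 4 and 5 of 20 for NRF2 targets, and 4 and 7 of 23 for TGF-beta targets. They numbered 3 and 7 of 23 for serum response factor and actin genes, 3 and 5 of 13 for glucocorticoid response genes, and 4 and 4 of 11 for Wnt targets. The circadian clock list had 7 higher and 0 lower of 18, with PER1 at 1.03 and NR1D1 at 0.83. Genes taken by symbol as KRAB zinc fingers, a family with members that repress transposons, had 121 higher and 75 lower of 447 (median 0.07). Metallothioneins and zinc genes had 1 and 2 of 7, Notch targets 1 and 1 of 7, and the cold response list 3 and 0 of 5. Leaving out WT replicate 1 moved by over 1.5 times the lower genes of cholesterol synthesis (to 2) and Wnt (to 1), and the higher genes of the NRF2 (to 1), TGF-beta (to 2), circadian (to 4) and KRAB lists (to 70, with 33 lower). Leaving out PARP3-/- replicate 1 did so for higher genes of fatty acid synthesis (to 1, and to 2 without PARP3-/- replicate 3), Wnt (to 2) and KRAB (to 76), and for lower NRF2 genes (to 3). The higher serum response genes numbered 1 without any 1 of the libraries other than WT replicate 2.

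Some RNA classes other than coding mRNA moved with replicate 1. Of 8 long nuclear noncoding RNAs 7 were higher (4 without PARP3-/- replicate 1) and 0 lower (median 0.40), with NEAT1 at 1137 and 1029 CPM in replicate 1 and 454 to 569 CPM in the others (1.04). MALAT1 differed by 0.93. Of 12 mitochondrial transcripts 8 were higher and 0 lower (median 0.48), but without WT replicate 1 only 1 passed. Their summed level was 599 and 467 CPM in WT and PARP3-/- replicate 1 and 303 to 415 CPM in the others. Of 138 genes annotated as misc_RNA 46 were higher and 1 lower (median 0.58), and of the 8 structural small RNAs tested 3 were higher (1 without PARP3-/- replicate 1), among them RN7SL2, the RNA of the signal recognition particle, at 0.17 in WT and 0.85 in PARP3-/-. Of 14 snoRNA host genes 6 were higher (2 without WT replicate 1) and 1 lower. The difference also moved with level: among protein-coding genes the 20% with the lowest mean CPM had a median of 0.14, with 505 higher and 190 lower, and the 20% with the highest mean CPM a median of −0.11, with 458 higher and 1143 lower. HSPA5, HSP90B1 and CANX, higher in replicate 1, had mean levels of 1162, 2166 and 1660 CPM and belong to the latter. Groups of 20% by transcript length had medians between −0.04 and 0.00. The part of depth, RNA class and level in the lists above was not tested beyond thinning all libraries to the depth of the shallowest, which left 3428 higher and 3601 lower genes.

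Defining markers of other cell types were near 0. The counts of PTPRC (leukocytes), EPCAM and CDH1 (epithelium), and PECAM1 and CDH5 (endothelium) were 4 or fewer in every library. Haematopoietic markers summed to 0.602 and 1.09 CPM in replicate 1 and 0.536 to 0.92 CPM in the others, and neither of the 2 tested passed. Epithelial markers summed to 166 and 110 CPM in replicate 1 and 125 to 178 CPM in the others, with 1 of 6 higher (ESRP1, 2.07) and 1 lower (KRT14, −1.25). Endothelial markers summed to 158 and 215 CPM in replicate 1 and 154 to 205 CPM in the others, and 0 of 5 passed. Of 19 glial and neural stem cell markers 5 were higher (2 without PARP3-/- replicate 1) and 2 lower (median 0.02). VIM, CD44 and EGFR did not pass, and NES, an intermediate filament of neural stem cells, was lower at −0.50. The glial marker GFAP was near 0 throughout, with 3, 11 and 17 counts in WT replicates 1, 2 and 3 and 1, 7 and 7 in PARP3-/-. In bulk RNA a lower share of cells in a state, such as S phase, and less RNA per cell cannot be told apart.

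The replicate 1 difference had the same sign in WT and PARP3-/- for 7231 of the 7240 genes that passed, which the additive fit favours, and for 5989 of them both replicate 1 libraries lay beyond the other 4. Estimated within each genotype, where no library is shared, the log2 differences correlated across the 13768 genes of at least 1 CPM with a Pearson r of 0.80, a description across genes, which are not independent replicates. Within WT 2664 genes (15.5%) were higher and 3003 (17.5%) lower, and within PARP3-/- 1856 (10.8%) and 2319 (13.5%), each from 1 library against 2, with the spread of the single replicate 1 library taken from the other libraries of the fit. The median size among the 7240 genes was 0.42 in WT and 0.36 in PARP3-/-, and 65% were larger in WT. HYOU1, for one, differed by 1.87 in WT and 1.18 in PARP3-/- (unadjusted p = 6.93e-05, adjusted p = 0.222 for the difference, and adjusted p = 4.46e-07 with the replicate number as a block, edgeR). A test of whether the replicate 1 effect differed between genotypes called 0 of 17144 genes after adjustment with edgeR, 1297 (7.57%) at an unadjusted p under 0.05, and 21 with DESeq2 after adjustment. With the replicate number as a block, a fit added after the data had been seen, edgeR called 409 genes (2.39%) after adjustment and 2138 at an unadjusted p under 0.05. That fit leaves 1 residual degree of freedom among the 6 libraries. Of the 409 genes 305 had the larger replicate 1 difference in WT, and 287 had also passed for replicate 1. They included 30 of the 40 mitotic genes, all 30 larger in WT, 12 of the 29 ATF4 genes (10 larger in WT), 9 of the 40 DNA replication genes and 6 of the 21 unfolded protein response genes (all larger in WT), 7 of the 82 cytosolic ribosomal proteins and 1 of the 18 heat shock proteins.

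**Figure D4:**
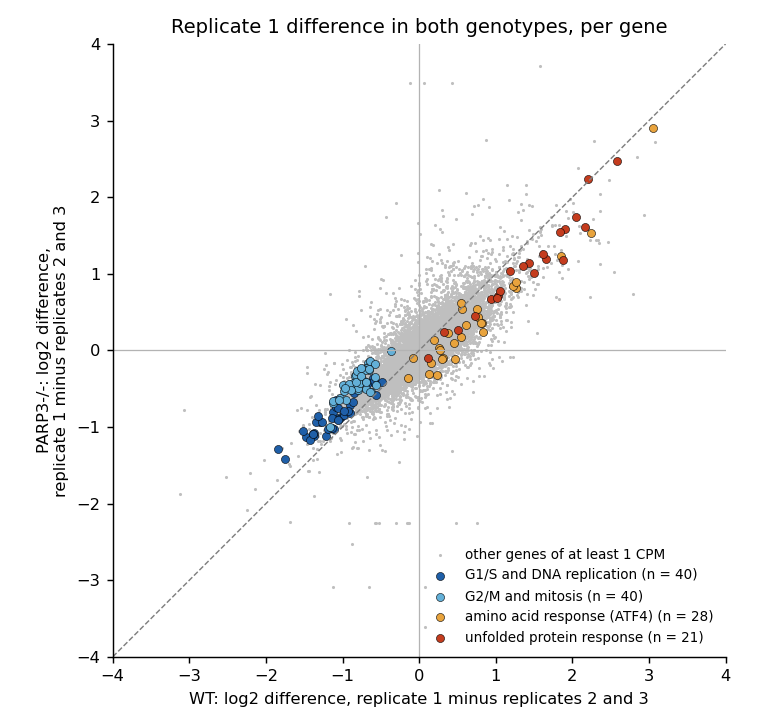
log2 difference of replicate 1 minus replicates 2 and 3 within PARP3-/- (y axis) against that within WT (x axis), 1 point for each of the 13768 genes of at least 1 CPM, with 4 lists in colour and the line of equal difference dashed; 1 gene lies outside the axes. Unfolded protein response genes lie at the upper right and DNA replication genes at the lower left, most of them nearer 0 in PARP3-/- than in WT.

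By deposited Gene Ontology annotation, over 1257 terms of 20 to 200 tested genes, the highest medians belonged to the smooth endoplasmic reticulum (0.32, 14 higher and 3 lower of 21), the ER unfolded protein response (0.29, 25 and 3 of 43) and the IRE1-mediated unfolded protein response (0.26, 34 and 9 of 57). The lowest belonged to telomere maintenance via semi-conservative replication (−0.62, 1 higher and 22 lower of 24) and replication-dependent nucleosome assembly (−0.60, 0 and 21 of 27). These terms were ranked after their values were seen and overlap the lists above. The wider term DNA replication had a median of −0.34, with 15 higher and 98 lower of 159, and was less uniform than the DNA replication list.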

How the data were processed

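Libraries were made from total RNA after rRNA depletion with a stranded kit (the labels say polyA RNA). Per the labels' processing notes and the study's methods, the authors trimmed reads with cutadapt 1.10, removed rRNA reads with Bowtie2 2.2.8, aligned to hg38 with STAR 2.5.3a and counted reads per Ensembl gene with HTSeq 0.6.1p1. The deposited raw counts were used. The 12 other per-sample columns (2 for each library) and the authors' comparison columns (fold changes and p-values) were not. The median transcript length in bases, deposited beside the counts, was used for groups by length.

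In R 4.3.3, edgeR 4.0.16 (quasi-likelihood, TMM, filterByExpr with minimum count 10) was fitted with genotype and replicate 1 against 2 and 3. Benjamini-Hochberg adjustment was over all 17144 genes, and a second fit held the interaction. P-values measure the spread among 6 libraries, which the main fit takes as independent. They do not measure the spread between replicate numbers, since only number 1 was set against numbers 2 and 3. Same-numbered libraries correlated in their deviations from genotype means (r = 0.83, 0.75 and 0.44 for numbers 1, 2 and 3). The replicate block takes the labels' numbers as pairs, which these correlations cannot settle for numbers 2 and 3. Differently numbered libraries correlated too (0.64 for WT 2 with PARP3-/- 3, 0.41 for WT 3 with PARP3-/- 2): deviations sum to 0 within a genotype, so a shift in replicate 1 alone makes replicates 2 and 3 correlate. In simulated counts the fit recovered 100 of 100 genes changed 2-fold and 98 of 100 changed 1.5-fold, and it called 9 unchanged genes. The simulated libraries were independent, few genes were changed, and every gene had the same spread. They do not show how the fit behaves where libraries of 1 number shift together in many genes. Alternatives were DESeq2 1.42.0, other size factors, filters, limits and gene sets, thinning, a replicate block (for the interaction, added after the data were seen) and each library left out.

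The grouping, lists and motifs were chosen with earlier results of these data known. Genes named are the 12 higher and 12 lower of smallest p beyond 2-fold with separated libraries and a mean of at least 1 CPM; up to 6 per list with at least 20% of members called in a direction, and up to 3 called in the other; PARP3; and other cell types' markers of at least 1 CPM. Other genes were chosen after their values were seen. Floors cover counting error only, and SEs come from the same test as the p-values.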

Additional observations from a re-analysis of the deposited data

Results flagged for a closer look

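PARP3 was picked out because the replicate 1 library was the highest of its genotype in WT and the lowest in PARP3-/-. This held for no other gene named by the rule. Most of those had to pass the additive fit, which favours the same sign in both genotypes, and PARP3 was named without that condition. PARP3 had a log2 difference of 0.58 in WT and −0.14 in PARP3-/-, a difference between genotypes of −0.72. In edgeR's interaction test it had an unadjusted p of 0.000632 and a Benjamini-Hochberg adjusted p of 0.319, so it did not pass over all genes without a replicate block. With the replicate number as a block it did, with the same difference of −0.72 and an adjusted p of 0.000185. The block fit was added after the data had been seen and leaves 1 residual degree of freedom. PARP3 was picked out from these same values, so neither test is separate evidence for it. Groups of 3 libraries are too small for a test of single libraries against their group.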

How the results depend on the processing

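The counts of genes higher and lower in replicate 1 were 3472 and 3768. A limit at 2-fold left 376 and 178, and an adjusted p under 0.01 left 2256 higher genes. Leaving out a library gave 1874 to 3604 higher and 2229 to 3999 lower genes, the lowest without WT replicate 1. Of the 4103 genes called without WT replicate 1, 3946 were called in the same direction with it. With the replicate block the counts were 3541 and 3819, and it moved neither by over 1.5 times. The 24 genes of smallest p passed with the same sign under all 13 refits, as did the same 20 unfolded protein response and 40 DNA replication genes. The 24 were chosen in these data for small p and separated libraries. The refits reuse these libraries, so the choice favoured this outcome. Counts for other lists moved more, such as 4 to 33 higher cytosolic ribosomal protein genes. The count of genes whose replicate 1 effect differs between genotypes was 0, but 21 with DESeq2, 200 with no filter on low counts, 409 with the replicate block (chosen after seeing the data), and between 33 and 833 when a replicate 2 or 3 library was left out (833 without WT replicate 2, 434 without WT replicate 3, 35 and 33 without PARP3-/- replicates 2 and 3); the cause was not tested. That test could not be fitted without either replicate 1 library. Over the 320 named genes and these settings, 201 results no longer passed, 7 newly passed, and 0 reversed. Each genotype holds 1 replicate 1 library, so its own spread is unknown.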
